A study of Saccharomyces cerevisiae with 4 samples.

Results

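The large ribosomal subunit of the budding yeast Saccharomyces cerevisiae is built by assembly factors, proteins that bind the precursor particle (the pre-60S particle), change it and leave again before it can translate. The genes for 60 such factors, from the Nop7 complex of the nucleolus to the export adaptor Nmd3 and the factors that are stripped off in the cytoplasm, were followed here through their messenger RNA. They were chosen by name as assembly and export factors, not by a filter on values, but earlier results of these data were known at that time. All 60 are listed once among the 7126 features of the gene tables. Polyadenylated RNA had been sequenced from the mutant strain xpo1-1 mex67-5 (n = 2 libraries) and from a wild-type strain (n = 2 libraries). Both strains grew overnight at 25 °C and spent 1 h at 37 °C before harvest. The series holds no library from before the shift. Genes that fell or rose are therefore those lower or higher in the mutant than in the wild type after the shift. Whether a difference was already present at 25 °C cannot be told. The mutant carries alleles of the 2 nuclear export receptors Xpo1 and Mex67 that are known to be temperature-sensitive, and the study compared splicing defects between both strains.

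Assembly begins in the nucleolus, where helicases, methyltransferases and scaffold proteins fold the ribosomal RNA around the first ribosomal proteins. GTPases and large AAA ATPases then remodel the particle in the nucleoplasm. Export through the nuclear pore needs Xpo1, which binds the leucine-rich export signal of Nmd3, together with further receptors, among them Mex67 with Mtr2 and the factor Arx1. In the cytoplasm Rei1, Yvh1 and other proteins remove the remaining factors, among them Arx1, Mrt4 and Tif6. In growing yeast the genes for these factors are controlled together and are known to be turned down by heat and other stress.

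Reads counted in genes numbered 62205252 and 50843634 for the mutant, against 49865570 and 49321384 for the wild type. Nothing in the labels says whether the replicates are different cultures, so the p-values describe variation among 4 libraries that may be only technical. Levels are given as CPM, reads per 1000000 of the TMM-scaled library, and a gene was called at an adjusted p under 0.05 in edgeR's quasi-likelihood test over all genes tested. Of the mutated genes, MEX67 was at 1903 and 1947 CPM in the mutant and at 152 and 156 CPM in the wild type. CRM1, which encodes Xpo1, was at 187 and 190 CPM in the mutant and at 217 and 220 CPM in the wild type. MEX67 was thus 12.5-fold higher in the mutant, and the cause of this was not tested. These levels do not check the alleles, since counts per gene do not show a mutation. The strains also differed in mating-type genes and markers: all 5 a-cell genes listed were higher and all 4 alpha-cell genes lower in the mutant, with MFA2 at 65.5 and 62.8 CPM in the mutant against 1.07 and 1.18 CPM in the wild type and MF(ALPHA)1 at 45.5 and 43.9 CPM against 1038 and 1019 CPM. Of 4 marker genes, 2 were higher and 2 lower, and HIS3 had 20902 and 17918 reads in the mutant against 10 and 8 reads in the wild type. Export mutations and other differences between the strains therefore cannot be told apart.

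Promoter sequences of 7 members are shown first, because the members moved together and because their promoters share letters that most yeast promoters lack. Shown are the bases from 230 to 71 before the start codon, read on the coding strand from the RefSeq genome of build R64. Capitals mark the letters CGATGAG of the PAC motif, which the repressors Dot6 and Tod6 bind, and the letters AAAAATTT of the RRPE motif, which Stb3 binds, on either strand. NOP7 (chrVII:695187-695346, plus strand) and NMD3 (chrVIII:443598-443757, plus strand) are members that fell strongly. SSF1 (chrVIII:229105-229264, plus strand) and SSF2 (chrIV:1087351-1087510, plus strand) are paralogs, of which SSF1 fell and SSF2 was not called. RPF1 (chrVIII:281265-281424, plus strand), CIC1 (chrVIII:210618-210777, plus strand) and REA1 (chrXII:363809-363968, minus strand) are the members that rose.
NOP7: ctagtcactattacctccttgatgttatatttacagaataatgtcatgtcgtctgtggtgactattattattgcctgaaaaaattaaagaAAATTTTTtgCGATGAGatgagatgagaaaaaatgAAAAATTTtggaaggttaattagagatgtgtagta
NMD3: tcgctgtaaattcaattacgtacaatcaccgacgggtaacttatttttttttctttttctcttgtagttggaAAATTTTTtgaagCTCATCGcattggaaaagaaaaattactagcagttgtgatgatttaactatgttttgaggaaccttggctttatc
SSF1: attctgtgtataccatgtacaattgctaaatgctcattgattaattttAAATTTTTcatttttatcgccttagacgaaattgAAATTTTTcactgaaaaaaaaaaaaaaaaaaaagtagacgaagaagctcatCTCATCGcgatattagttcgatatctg
SSF2: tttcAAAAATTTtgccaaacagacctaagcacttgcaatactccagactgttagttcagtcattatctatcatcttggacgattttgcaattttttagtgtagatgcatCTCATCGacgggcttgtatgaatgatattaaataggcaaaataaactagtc
RPF1: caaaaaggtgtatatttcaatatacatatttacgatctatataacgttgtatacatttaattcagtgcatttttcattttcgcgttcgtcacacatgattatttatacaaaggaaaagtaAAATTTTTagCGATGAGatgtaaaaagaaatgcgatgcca
CIC1: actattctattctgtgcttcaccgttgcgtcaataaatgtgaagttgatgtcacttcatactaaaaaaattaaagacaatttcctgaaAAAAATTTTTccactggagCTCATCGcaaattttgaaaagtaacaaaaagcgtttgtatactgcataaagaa
REA1: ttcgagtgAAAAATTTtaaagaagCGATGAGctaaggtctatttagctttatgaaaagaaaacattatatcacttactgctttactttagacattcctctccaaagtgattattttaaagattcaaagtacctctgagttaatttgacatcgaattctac
Each of the 7 windows holds 1 PAC match, and NOP7, SSF1 and CIC1 hold 2 RRPE matches where the other windows hold 1. In CIC1 the 2 RRPE matches overlap, since the run of letters reads as the motif on both strands.

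The genes of large-subunit assembly fell nearly as a whole in the mutant. Of the 60 members, all passed the count filter, 56 were lower, 3 (RPF1, CIC1 and REA1) were higher and 1 (SSF2) was not called. Over all 6563 genes tested, 46.3% were called lower and 46.8% higher, so a call by itself was common in these data. At least 2-fold lower were 51 of the 60 members, against 25.5% of all genes, and at least 2-fold higher was 1 member, against 27.8% of all genes. The median log2 change of the members was -2.09, which is 4.26-fold lower, and that of all genes tested was 0.01. The middle of the members lay between -2.78 and -1.44 (lower and upper quartile), and the range ran from -4.02 (SSF1) to 2.17 (RPF1). Libraries of both strains did not overlap for 57 members that were lower and 3 that were higher, where 48.0% of all genes were lower and 48.5% higher without overlap.

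As a share of all reads the members fell too. They summed to 4200 and 4247 CPM in the mutant libraries, which is 0.420% and 0.425% of the scaled library, and to 13329 and 12794 CPM in the wild-type libraries, which is 1.33% and 1.28%. These are shares of the polyadenylated RNA in a library, so less RNA per cell and a larger share of other RNA cannot be told apart. Per kilobase of coding sequence the median member was at 32.6 and 33.7 CPM per kb in the mutant and at 144 and 141 CPM per kb in the wild type. Among 5841 coding genes that put the median member at the 31.6th and 32.9th percentile in the mutant and at the 77.8th percentile in both wild-type libraries. The SD of log2 CPM per kb among members was 1.2 in both mutant libraries and 0.995 and 0.974 in the wild-type libraries. The mutant value includes RPF1 and CIC1, at 613 and 386 CPM per kb, where the next member, MRT4, was at 187. The SD without RPF1 and CIC1 and the SD over all genes were not computed, so a wider spread of the members at large is not shown.

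**Figure D1:**
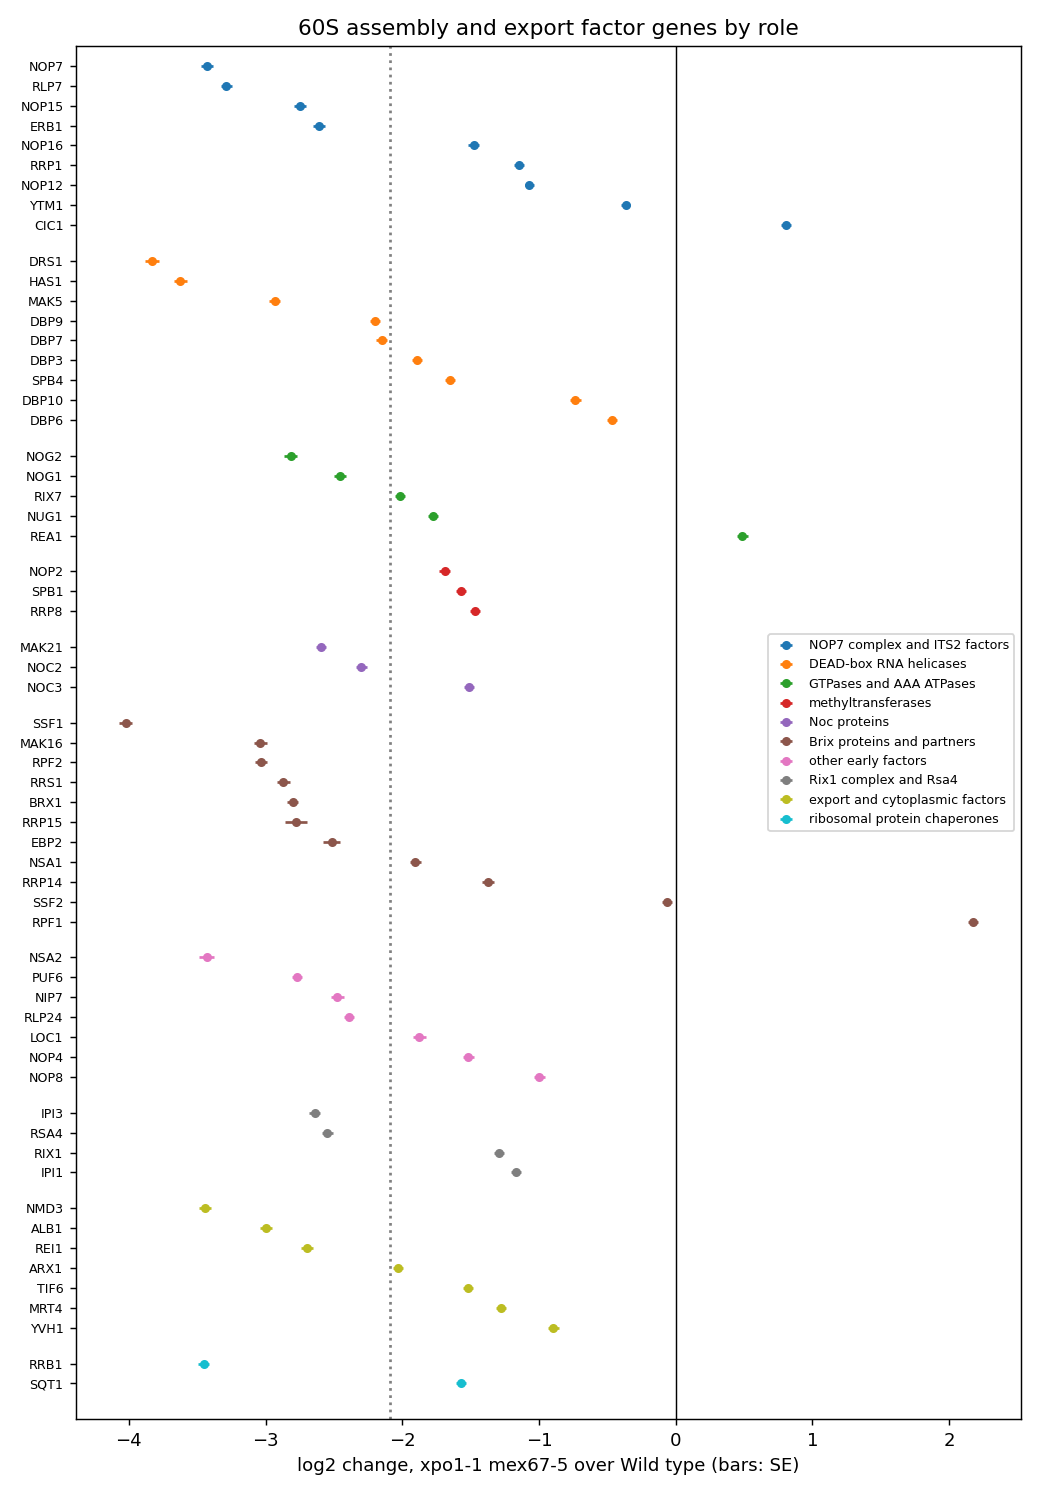
The log2 change of each of the 60 members (mutant over wild type, from the edgeR fit) is plotted in rows grouped by role, with bars for the standard error and a dotted line at the members' median of -2.09. RPF1, CIC1 and REA1 lie right of 0, SSF2 lies at 0, and the other members lie left of it.

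The Nop7 complex (Nop7, Erb1 and Ytm1) and the factors around the internal transcribed spacer ITS2 were low, but unequally. NOP7 (YGR103W, chromosome VII, 695417 to 697234) encodes the scaffold of that complex. It had 35.0 and 34.5 CPM in the mutant, against 384 and 365 CPM in the wild type, 10.8-fold lower (log2 change -3.43, SE 0.04, edgeR quasi-likelihood adjusted p = 5.8e-21). ERB1 (YMR049C), which binds Nop7 and Ytm1, had 38.8 and 42.0 CPM in the mutant, against 252 and 241 CPM in the wild type, 6.10-fold lower. YTM1 (YOR272W), the subunit that the Rea1 ATPase pulls on, had 139 and 143 CPM in the mutant and 183 and 180 CPM in the wild type, a log2 change of -0.37 (SE 0.04). All 3 genes were called lower and their libraries did not overlap, as for most genes tested (48.0% lower and 48.5% higher without overlap). The fold differed widely within this one complex. RLP7, a relative of ribosomal protein L7 that binds ITS2, fell 9.76-fold, NOP15 6.71-fold, NOP16 2.79-fold, RRP1 2.21-fold and NOP12 2.10-fold. CIC1 (YHR052W), another ITS2-binding factor, went the other way, with 436 and 438 CPM in the mutant against 256 and 244 CPM in the wild type, 1.75-fold higher (edgeR adjusted p = 4.6e-13). In all, 8 of these 9 genes were lower and 1 higher, with a median log2 change of -1.48.

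All 9 genes of the DEAD-box RNA helicases, enzymes that unwind or remodel RNA in the particle, were lower (median log2 change -2.15). DRS1 fell the most, with 20.0 and 22.6 CPM in the mutant against 309 and 296 CPM in the wild type, 14.2-fold lower. HAS1 fell 12.3-fold, MAK5 7.64-fold, DBP9 4.59-fold, DBP7 4.44-fold, DBP3 3.71-fold and SPB4 3.14-fold. DBP10 and DBP6 moved least. DBP6, which works in the earliest particles, had 89.2 and 86.3 CPM in the mutant and 124 and 119 CPM in the wild type, 1.38-fold lower.

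Of the 5 GTPases and AAA ATPases, 4 were lower and REA1 was higher. NOG1 (YPL093W), the gene of a GTPase that joins in the nucleolus, had 107 and 116 CPM in the mutant, against 617 and 604 CPM in the wild type, 5.48-fold lower. NOG2, whose product is a placeholder on the particle for Nmd3, fell 7.05-fold, to 46.4 and 49.4 CPM in the mutant against 349 and 326 CPM in the wild type. RIX7 fell 4.05-fold and NUG1 3.42-fold. REA1 (YLR106C, also named MDN1) encodes the largest of these proteins, a dynein-like ATPase, from a coding sequence of 14733 bases. It had 220 CPM in both mutant libraries, against 151 and 164 CPM in the wild type, 1.40-fold higher (log2 change 0.49, SE 0.04, edgeR adjusted p = 2.7e-09). Per kilobase REA1 had the lowest level of all members in the wild type, at 10.7 ± 0.636 CPM per kb (SD, n = 2), and was 53rd of 60 in the mutant, at 15.0 ± 0.009 CPM per kb.

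NOG2 is the single member with a record in the intron tables. Its intron (chromosome XIV, 721771 to 722302, 532 bases) holds the small nucleolar RNA gene SNR191. The NOG2 record had 0 reads in every library, as did all 197 intron records on the 7 nuclear chromosomes and the mitochondrial genome that were taken as not counted, so splicing of NOG2 was not measurable here. The snoRNA feature had 80 and 87 reads in the mutant against 305 and 265 reads in the wild type, 3.90-fold lower. The libraries do not mark strand, so which transcript gave these reads is not known.

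The 3 RNA methyltransferase genes changed alike, with NOP2 3.23-fold, SPB1 2.97-fold and RRP8 2.76-fold lower. The Noc proteins are scaffolds that work in pairs: Noc2 with Mak21 (Noc1) early and Noc2 with Noc3 later. MAK21 fell 6.04-fold, NOC2 4.92-fold and NOC3 2.86-fold. NOC2 had 47.9 and 50.6 CPM in the mutant and 242 and 243 CPM in the wild type.

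The Brix-domain proteins and their partners held both ends of the range. Of these 11 genes, 9 were lower, 1 was higher and 1 was not called, with a median log2 change of -2.78. SSF1 (YHR066W) and SSF2 (YDR312W) encode closely similar proteins that bind the particle early. SSF1 had 13.0 and 14.5 CPM in the mutant, against 226 and 220 CPM in the wild type, 16.3-fold lower (log2 change -4.02, SE 0.05, edgeR adjusted p = 6.9e-21). SSF2 had 76.4 and 74.9 CPM in the mutant and 79.6 and 78.3 CPM in the wild type, which was not called (log2 change -0.06, SE 0.04, edgeR adjusted p = 0.115). By these counts the major paralog in the wild type was the minor one in the mutant. Per kilobase, the ratio of SSF1 to SSF2 was 0.171 and 0.194 in the mutant libraries and 2.84 and 2.81 in the wild-type libraries. Of the words of 50 bases, the read length, in each of both genes, 96.0% were unique in the genome, so few reads could be shared between them. SSF2 also ends 276 bases from PIB1, a gene that runs towards it and rose 10.5-fold. Reads were not assigned by strand, and whether PIB1 transcription enters the SSF2 counts was not tested.

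RPF1 (YHR088W, chromosome VIII, 281495 to 282382) was the member that rose most. RPF1 had 551 and 538 CPM in the mutant against 122 and 120 CPM in the wild type, 4.51-fold higher (log2 change 2.17, SE 0.04, edgeR adjusted p = 3.8e-19). Its binding partner MAK16 had 34.8 and 37.9 CPM in the mutant against 309 and 287 CPM in the wild type, 8.22-fold lower. The ratio of RPF1 to MAK16 per kilobase was 16.4 and 14.7 in the mutant and 0.408 and 0.432 in the wild type. RPF2 and RRS1, whose products bring in the 5S RNA with its proteins, fell 8.17-fold and 7.31-fold. BRX1 fell 6.97-fold and its partner EBP2 5.72-fold. RRP15 fell 6.86-fold, NSA1 3.74-fold and RRP14 2.59-fold.

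**Figure D2:**
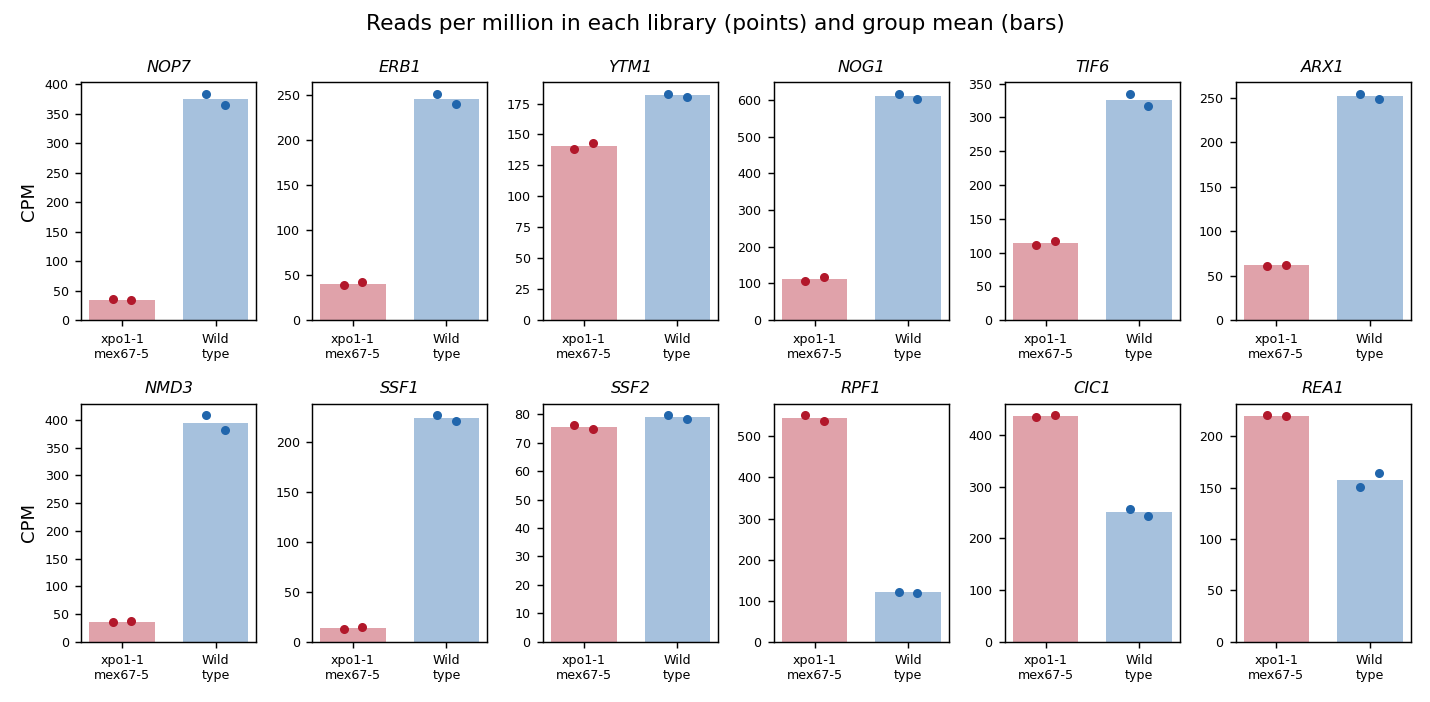
CPM of 12 members in each library (points) with the group mean (bars), the mutant left of the wild type, each panel with its own axis from 0. The first row (NOP7, ERB1, YTM1, NOG1, TIF6, ARX1), NMD3 and SSF1 are lower in the mutant, SSF2 is nearly level, and RPF1, CIC1 and REA1 are higher.

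All 7 genes grouped as other early factors were lower (median log2 change -2.39). NSA2 fell 10.8-fold, to 25.2 and 25.5 CPM in the mutant against 289 and 258 CPM in the wild type. PUF6, an RNA-binding protein, fell 6.83-fold, NIP7 5.56-fold, RLP24, a placeholder for ribosomal protein L24, 5.24-fold, LOC1 3.67-fold and NOP4 2.86-fold. NOP8 changed least, with 41.8 and 41.2 CPM in the mutant against 84.4 and 81.4 CPM in the wild type, a log2 change of -0.997 that lies just short of 2-fold.

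The Rix1 complex, which binds the nucleoplasmic particle, and RSA4, which links it to Rea1, were all lower. IPI3 fell 6.24-fold and RSA4 5.85-fold, while RIX1 and IPI1 fell 2.45-fold and 2.25-fold. RIX1 had 50.7 and 48.5 CPM in the mutant and 122 and 121 CPM in the wild type.

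The 7 genes for export and for the cytoplasmic steps were all lower, with a median log2 change of -2.03. NMD3 (YHR170W, chromosome VIII, 443828 to 445384), the adaptor that Xpo1 binds, fell the most of them. It had 35.6 and 37.0 CPM in the mutant against 408 and 381 CPM in the wild type, 10.9-fold lower (log2 change -3.44, SE 0.04, edgeR adjusted p = 1.3e-20). CRM1, the gene of its receptor, was 1.16-fold lower, so the ratio of NMD3 to CRM1 per kilobase was 0.397 and 0.407 in the mutant and 3.94 and 3.61 in the wild type. ARX1 (YDR101C), an export factor that contacts the pore, had 61.2 and 62.0 CPM in the mutant against 255 and 249 CPM in the wild type, 4.09-fold lower. ALB1, the partner of Arx1, fell 7.99-fold. REI1, needed to release Arx1 in the cytoplasm, fell 6.49-fold, and the feature SLM6 overlaps it by 453 bases. TIF6 (YPR016C), which keeps the subunits from joining too early, had 111 and 117 CPM in the mutant against 335 and 317 CPM in the wild type, 2.87-fold lower. MRT4, the placeholder for the stalk protein P0, fell 2.42-fold. YVH1, the phosphatase that releases Mrt4, fell 1.86-fold. The libraries of both strains did not overlap for any of these 7 genes. This was common, since 48.0% of all genes tested were lower and 48.5% higher without overlap.

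The 2 chaperones of single ribosomal proteins were lower to different degrees. RRB1, which escorts ribosomal protein L3, had 36.5 and 37.8 CPM in the mutant against 412 and 400 CPM in the wild type, 10.9-fold lower. Its client gene RPL3 fell 10.8-fold, and the ratio of RRB1 to RPL3 per kilobase was 0.0524 and 0.0544 in the mutant and 0.0545 and 0.0534 in the wild type, which overlap. SQT1, which escorts ribosomal protein L10, fell 2.97-fold and RPL10 9.79-fold. The ratio of SQT1 to RPL10 was 0.351 and 0.338 in the mutant and 0.106 and 0.103 in the wild type.

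Ratios between partners do not depend on the scaling of the libraries, and 19 pairs were compared in this way. A ratio was lower in both mutant libraries than in both wild-type libraries in 8 pairs, higher in 10 and overlapping in 1. Most single genes were also without overlap (48.0% of all genes lower and 48.5% higher), and ratios of other gene pairs were not computed. An exact permutation test of 2 against 2 libraries cannot give a p below 0.33. Small shifts were seen for RPF2 to RRS1 (0.604 and 0.515 in the mutant, 0.630 and 0.621 in the wild type) and for RIX1 to IPI1 (0.531 and 0.494 in the mutant, 0.555 and 0.563 in the wild type). Larger shifts were seen for NOP7 to YTM1, at 0.192 and 0.183 in the mutant and 1.60 and 1.54 in the wild type, and for RIX1 to IPI3, at 1.39 and 1.42 in the mutant and 0.542 and 0.559 in the wild type. ARX1 to ALB1 was at 0.953 and 0.956 in the mutant and at 0.481 and 0.498 in the wild type. The assembly factors that resemble a ribosomal protein were less reduced than that protein's gene. This is not particular to them, since the median log2 change was -2.09 for the members and -4.06 for large-subunit ribosomal protein genes. RLP24 to RPL24A was at 0.457 and 0.445 in the mutant and 0.117 and 0.123 in the wild type. MRT4 to RPP0 was at 1.08 and 1.01 in the mutant and 0.355 and 0.305 in the wild type. For RLP7 to RPL7A the ratio was 0.266 and 0.250 in the mutant and 0.165 and 0.161 in the wild type.

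The order of the levels changed between strains. In the mutant RPF1 was first at 613 ± 10.5 CPM per kb (SD, n = 2), followed by CIC1 at 386 ± 1.37 and MRT4 at 187 ± 2.46, and MAK5 was last at 8.51 ± 0.114. In the wild type MRT4 was first at 453 ± 24.6 CPM per kb, followed by TIF6 at 442 ± 17.3, RLP24 at 366 ± 0.767 and NSA2 at 348 ± 27.7, and REA1 was last. Neighbours in this order overlapped between libraries in 27 of 59 cases in the mutant and in 36 of 59 in the wild type, so the exact rank of many members is not resolved. RPF1 was 32nd in the wild type, and SSF1 was 58th in the mutant and 27th in the wild type. Across the 60 genes, which share the same 4 libraries, the log2 change had a Spearman correlation of -0.39 with the wild-type level per kb, a value that enters the change itself. With coding length the correlation was 0.07.

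The other genes of the same work were lower as well. Of 28 further genes of large-subunit assembly, 26 were lower, MTR2 (log2 change 0.23), the partner of Mex67, was higher and URB1 (log2 change -0.03) was not called, with a median log2 change of -1.28. Of the 26, ARB1 was only 1.06-fold lower (edgeR adjusted p = 0.038), and 25 or 26 genes were called lower under the alternatives. SYO1, which imports ribosomal proteins L5 and L11, fell most of these, 7.42-fold. Of 50 genes of the small-subunit processome, the particle that makes the other subunit, 47 were lower and 3, HCA4, RCL1 and UTP20, were higher, with a median of -2.11. Among those BFR2 fell most, 13.4-fold, and HCA4, a helicase gene, rose 4.14-fold. All 81 large-subunit ribosomal protein genes fell as well (median -4.06). These medians are given as descriptions, and no test of a difference between the lists was made.

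**Figure D3:**
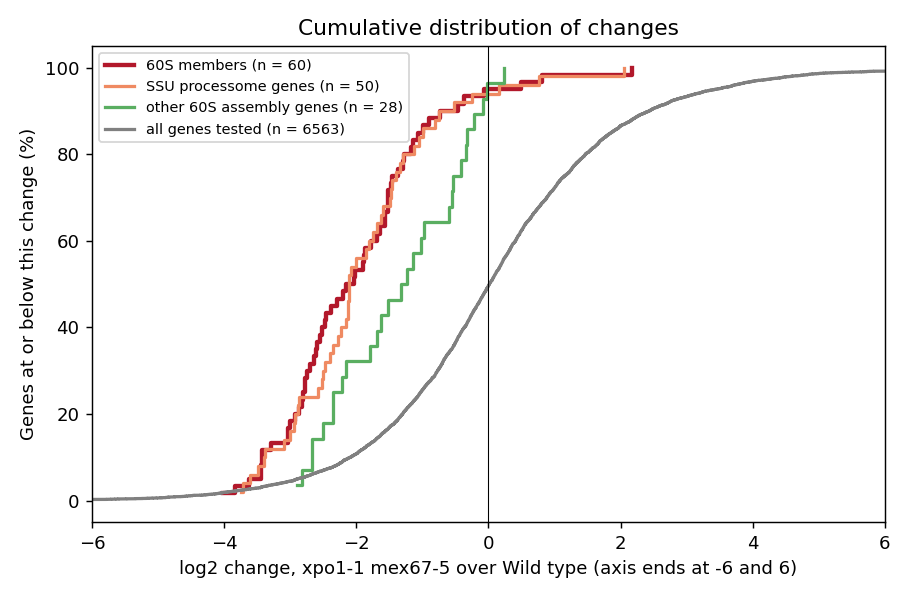
Cumulative share of genes (vertical axis, percent) at or below each log2 change (horizontal axis, mutant over wild type) for the 60 members, 50 genes of the small-subunit processome, 28 other large-subunit assembly genes and all 6563 genes tested. The members and the processome genes run close together with medians of -2.09 and -2.11, and all genes are centred near 0. The median of the other assembly genes, -1.28, lies between, but their curve does not do so at both ends.

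The members that did not fall were then set beside the genes next to them, because reads were not assigned by strand and lie anywhere in a gene. RPF1 starts 339 bases after the end of RTC3 on the same strand, and RTC3, a stress gene, had 2294 and 2453 CPM in the mutant against 45.5 and 49.8 CPM in the wild type, 49.8-fold higher. SSF2 ends 276 bases from the end of PIB1, which runs towards it from the other strand and had 362 and 360 CPM in the mutant against 35.0 and 33.8 CPM in the wild type. YTM1, which fell least of the called members, ends 256 bases from TPO4, which also runs towards it and had 659 and 673 CPM in the mutant against 72.3 and 79.9 CPM in the wild type. CIC1 lies beside the CUP1 repeats. YHR054C in that region lies 1206 bases away and runs towards CIC1. It had 765 and 748 CPM in the mutant against 1.59 and 1.28 CPM in the wild type. CUP1-1 between them is listed with 0 reads in every library. How reads in repeated genes were handled is not known, so this does not show that CUP1-1 was silent. REA1 had no such neighbour: SEN2 and REX3 beside it had log2 changes of -0.17 and -0.38.

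Neighbours were taken as the nearest coding genes tested, so genes without counts, such as CUP1-1, were passed over. In all, 7 members had such a neighbour that is transcribed towards them and rose at least 2-fold. Their median log2 change was -0.37, with 4 lower, 2 higher and 1 not called, against a median of -2.30 in the other 53, of which 52 were lower. Without CIC1, whose adjacent gene CUP1-1 was not tested, the median of the remaining 6 was -0.97. Of the 7, SQT1 beside GAT4, ARX1 beside YDR102C and NSA2 beside RSP5 fell at least 2-fold. GAT4 had 29.8 and 30.1 CPM in the mutant and YDR102C 6.79 and 6.56 CPM, but RSP5 had 514 and 522 CPM in the mutant against 254 and 249.8 CPM in the wild type, and NSA2 beside it fell 10.8-fold. For 7 members a nearest gene transcribed away from them rose at least 2-fold, and all 7 were lower, with a median of -2.64. Over all coding genes the direction of the neighbour did not show the contrast seen among the members: 1309 genes with a risen neighbour running towards them had a median of 0.30, 1111 with only a risen neighbour running away had a higher one of 0.42, and the other 3414 had -0.36. These classes were formed after the values were seen. The counts hold no position within a gene, and the part that transcription from a neighbour plays in these values was not tested.

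**Figure D4:**
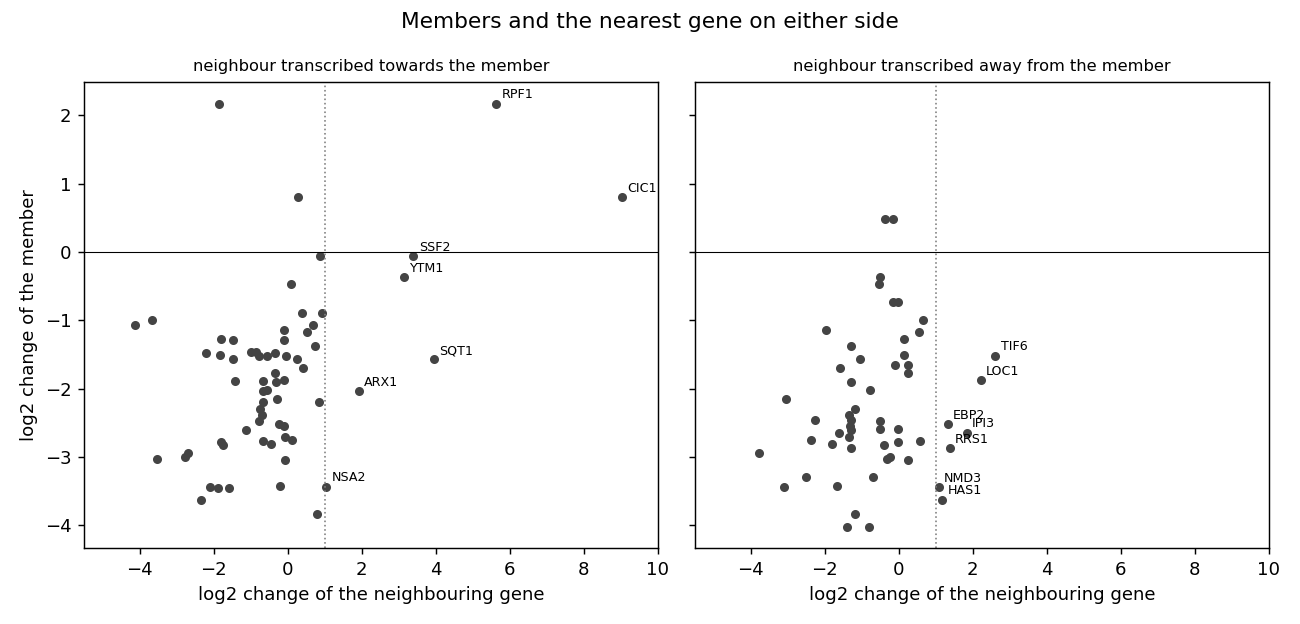
The log2 change of each member (vertical axis) is plotted against that of the nearest tested coding gene on either side (horizontal axis), at left for neighbours transcribed towards the member and at right for neighbours transcribed away from it. A dotted line marks a log2 change of 1, and members with a neighbour beyond it are named. RPF1, CIC1, SSF2 and YTM1 lie at the upper right of the left panel, and no member of the right panel with a risen neighbour lies above a log2 change of -1.52.

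A gene of the small-subunit processome was the nearest tested neighbour on one side of 6 members, a count that was not compared with other genes. NSA2 and LCP5 start 301 bases apart on opposite strands, and both were lower, LCP5 with a log2 change of -3.09. SSF1 and RRP3 start 297 bases apart on opposite strands, with log2 changes of -4.02 and -1.40. NMD3 follows DBP8 (log2 change -2.10) on the same strand, RIX1 follows UTP9 (-1.48), and NOG2 follows ESF2 (-1.75). RRP15 (-2.78) and NOC4 (-1.80) run towards each other.

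The promoters of the members held the PAC and RRPE letters far more often than promoters at large. Both motifs are known from promoters of ribosome biogenesis genes, so their frequency is not independent of the choice of genes. In the 250 bases before the start codon, CGATGAG stood on either strand in 43 of 60 members (71.7%), against 6.31% of 5987 coding promoters. AAAAATTT stood in 51 members (85.0%), against 13.4% of all promoters. Both were present in 37 members (61.7%), against 3.01% of all promoters. The corresponding shares in the small-subunit processome list were 68.0% for PAC and 82.0% for RRPE, and in the other large-subunit assembly genes 39.3% and 60.7%. The 48 PAC matches had a median position of -121.5 and the 70 RRPE matches one of -143.5, counted from the start codon to the first base of the match. Overlapping matches on both strands were counted separately.

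Members with these letters and the 3 without them had median changes below 0. With GATGAG and AAAATTTT as the letters, all 60 members held at least 1 motif, so the class without them depends on the letters chosen. The median log2 change was -2.47 in the 37 members with both, -1.97 in the 14 with RRPE only, -1.02 in the 6 with PAC only and -1.57 in the 3 with neither (NOC3, RRP15 and SQT1). RPF1, CIC1, REA1 and SSF2 all hold both, as their sequences above show. A match is a run of letters and does not show that a factor binds there. Of the genes for regulators that act on such promoters, TOD6 had 80.1 and 85.2 CPM in the mutant against 171 and 162 CPM in the wild type, 2.02-fold lower. DOT6 was slightly lower (log2 change -0.15). STB3 had 136 and 137 CPM in the mutant against 79.1 and 81.6 CPM in the wild type, 1.70-fold higher. SFP1, an activator of ribosome genes, had 222 CPM in both mutant libraries against 125 and 129 CPM in the wild type, 1.75-fold higher. SCH9, a kinase under the TOR pathway, had a log2 change of 0.11. All 5 were called in the edgeR fit, as were most genes tested (46.3% lower and 46.8% higher).

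**Figure D5:**
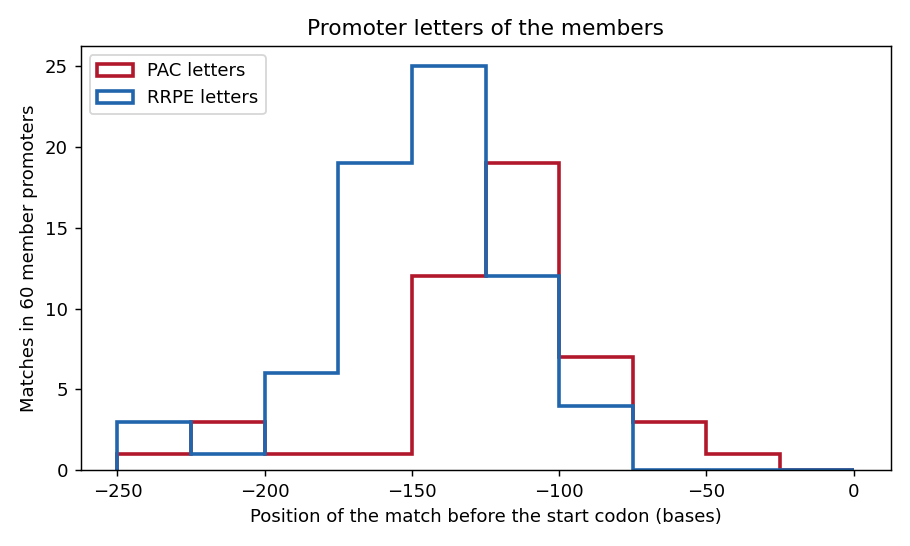
Number of matches to the PAC letters and the RRPE letters (vertical axis) in the 250 bases before the start codon of the 60 members, in bins of 25 bases by the position of the match (horizontal axis). Both kinds of match gather between 75 and 175 bases before the start codon, with medians of -121.5 for PAC and -143.5 for RRPE.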

How the data were processed

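Each library has 2 deposited tables of raw counts, one for genes and one for introns. Per the labels' protocols, poly(A) RNA was made into libraries with a TruSeq RNA v2 kit, which does not mark strand, and read as single 50 bp reads. Named without roles in the submitters' processing notes are STAR 2.5, featureCounts, bcl2fastq 2.17, build R64 and DESeq2 1.8.2. Reads in overlapping or repeated genes were handled in a way not given in the sources used here.

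Of 7126 features, 6162 matched RefSeq R64 by name or symbol, and overlap with the 964 others was not checked. All 355 intron starts that could be compared matched that build. The test was edgeR's (4.0.16, in R 4.3.3) robust quasi-likelihood F-test, two-sided, after filterByExpr and TMM scaling, with group as the only term and Benjamini-Hochberg adjustment over 6563 genes. The scaling factors lay between 0.994 and 1.01. The standard error is the log2 change divided by the square root of F. Replicates differed by more than counting noise, with a chi-square over its degrees of freedom of 7.15 in the mutant and 10.6 in the wild type. The test was also tried on simulated counts in which 200 of 6563 genes were changed. It recovered 90% of those changed 1.2-fold and 98% to 100% of those changed more, with 18 false calls. Far more genes were called in the data, so the simulation does not check the scaling under such wide change. Same-numbered libraries did not deviate together (correlation -0.03).

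Members, role groups, lists (other large-subunit assembly, small-subunit processome, regulators, export receptors, mating type, markers), pairs and tests were chosen with earlier results of these data known. Named with values were NOP7, ERB1, YTM1, NOG1, TIF6, ARX1, NMD3, the extremes of each role group and list, members higher or not called, SSF1, SSF2, NOG2 and the pairs. Neighbours of the members, SNR191 and the other genes named were added after values were seen. Promoters were read from the RefSeq genome with pandas 2.3.3, and figures drawn with matplotlib 3.10.9. Alternatives were 3 other scalings, 2 other filters, DESeq2 1.42.0, a replicate block, a threshold of 0.01, other sets of members, other motif letters and leaving out each library.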

Additional observations from a re-analysis of the deposited data

How the results depend on the processing

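The counts of members called lower (56) and higher (3) were the same under RLE, library-size and upper quartile scaling, both other filters, DESeq2, a threshold of 0.01 and without any 1 of the 4 libraries. The replicate block gave 56 and 3 as well and a median of -2.09, and it changed no call of a member. Members at least 2-fold lower numbered 50 to 52 under these settings. The median log2 change of the members moved to -1.99 with upper quartile scaling, which shifted the median of all genes to 0.12, and to -2.04 with genes of at least 1 CPM only. Restricted to the 58 members without overlap and with at least 95% unique words of 50 bases, it was -2.03. Every member passed the limit on unique words (lowest 96.0%, SSF1 and SSF2), so only NOG2 and REI1 were left out, for overlap. Without the 7 members whose risen neighbour runs towards them, an alternative chosen after seeing the data, the median was -2.30 and 1 member was higher, by the construction of that set. SSF2 had a log2 change of 0.0399 with upper quartile scaling. Of 660 values of single members under alternatives, the other 659 kept direction and call. With GATGAG for PAC and AAAATTTT for RRPE, 100% of members held at least 1 of them, against 95% with CGATGAG and AAAAATTT, while the share of all promoters was 21.6% and 16.7%. The shorter PAC letters alone stood in 91.7% of members and 17.1% of all promoters. AAAATTTT stood in 35.7% of the other large-subunit assembly genes, where AAAAATTT stood in 60.7%. Of these 28 genes 25 were called lower with RLE, library-size and upper quartile scaling, the 1 CPM filter, a threshold of 0.01 and without either wild-type library or mutant replicate 1. The planned test of the NOG2 intron could not be run, since its chromosome holds no intron reads. With 2 libraries a group, spread is poorly known, and depth did not limit these genes, which had at least 418 reads in each library.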
